A study of Mus musculus with 8 samples.

Results

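The genes described here set the coreceptor choice of a developing T cell: the coreceptors Cd4, Cd8a and Cd8b1, the transcription factors Gata3 and Zbtb7b (which encodes ThPOK), the Runx factors Runx1, Runx2 and Runx3, and their shared partner Cbfb. Members were the probe sets to which the annotation of the mouse array gives one of these symbols and no other, which found 8 of the 9 genes, among 18193 genes with such a probe set, and 20 of the 45101 probe sets. Runx2 had no such probe set, so its expression is not analysed here, and only its promoter sequence is described. RNA came from double-positive thymocytes of mice 4 to 5 weeks old, enriched over columns that bind CD4, with 1 mouse on each of 8 arrays. The titles put 4 mice in the Control group, whose genotype field reads c-Myb sufficient, and 4 in the Mutant group, whose field reads c-Myb deficient. The source names run the other way, with Mybf/f Cd4-Cre Tcra-/- for the control mice and Mybf/w Cd4-Cre Tcra-/- for the mutant mice, so the groups are called by their titles and every difference is of arrays titled mutant minus arrays titled control. By the source names every mouse was Tcra-/-, without the alpha chain of the T-cell receptor, and every mouse carried Cd4-Cre, a recombinase driven by Cd4 regulatory sequence that is active from about the double-positive stage.

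A double-positive thymocyte carries CD4 and CD8 together and keeps 1 of them after its receptor has been selected on major histocompatibility complex (MHC) molecules. ThPOK, induced after class II selection and needing Gata3, keeps CD8 genes and Runx3 off in CD4 cells. Runx3, bound to the protein of Cbfb, silences Cd4 and Zbtb7b in CD8 cells, while Runx1 holds Cd4 off at the earlier double-negative stage. Without the receptor alpha chain these cells are not selected, so the comparison is of cells before the choice. c-Myb has been reported to act upstream of Gata3 in this choice.

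Signals are the deposited linear intensities, and differences are given on the log2(signal + 16) scale with the standard error (SE) from limma and a p adjusted over all probe sets tested. A reading is called dim when it does not exceed 33.8, the median of the whole table. In these bulk samples, fewer cells that express a gene and less RNA per cell cannot be told apart. Array medians ran from 30 to 37.9. Of the 9 markers fixed for double-positive thymocytes, 8 had a probe set, and all 8 were above the dim limit on every array. Among them Rag2 was lower on every mutant array (2737.5 to 3266.4) than on any control array (3979.6 to 4240.3), and so was Dntt (8438.3 to 10297.7 against 10653.4 to 11851.8). B-cell markers did not exceed 37.5 on any array. Of 4 thymic stroma markers, 1 (Epcam) was above the dim limit on all arrays. It read 73.9 to 116.7 on control and 43.5 to 72.8 on mutant arrays, without overlap. Of 3 erythroid markers 1 had a probe set, Hba-a2, at 82.1 to 113.8 over all arrays. The part of stromal and erythroid RNA in the results was not tested. Of 7 macrophage and dendritic cell markers, 3 (Csf1r, Lyz2 and Cd74) were above the dim limit on all arrays, Cd74 at up to 676.6. The 7 summed to 354.5 to 1040 on control and 554.1 to 834.4 on mutant arrays, and their part in the results was not tested. The double-negative markers Il2ra, Kit and Cd44 summed to 202.4 to 353.3 on control and 747.7 to 1236 on mutant arrays. That sum followed Il2ra, while Kit stayed between 24.2 and 89.9 and Cd44 between 95.6 and 161.7. Xist, an RNA of female cells, read 4358.5 in control replicate 1, 23.4 to 36.7 in the other control mice and 4128.7 to 5735.5 in the mutant mice. Mutant replicate 4 had an 18S ribosomal RNA control of 7142.7 against 676.1 to 1459 elsewhere. The brightest probe set of the targeted gene Myb (1421317_x_at) read 8326.5 to 10387.9 on control and 10511.9 to 11754 on mutant arrays, a difference of 0.28 ± 0.08 (SE, adjusted p = 0.0783 in limma). Control replicates 1 and 2 (10387.9 and 10329.9) stood above replicates 3 and 4 (8405.4 and 8326.5) and near mutant replicate 4 (10511.9). Of the other 2 Myb probe sets, 1 was called higher in the mice titled mutant (0.36, adjusted p = 0.0298 in limma) and 1 differed by 0.04. None was thus lower in the mice titled mutant, whose source names read Mybf/w. Whether the probes lie in the floxed part is unknown here, so they do not check the titles.

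No lineage choice gene passed the test. Of the 20 probe sets, 17 from 7 genes exceeded the dim limit on at least 4 arrays and were tested, and 0 of them were called in limma, against 6.98% of all 19100 probe sets tested (3.68% higher and 3.3% lower). An unadjusted p under 0.05 was reached by 5 of the 17, or 29.4%, against 22.2% of all. Control and mutant arrays were fully apart for 3 of the 17, or 17.6%, against 15.2% of all, and in all 3 the mutant arrays were lower, which 7.65% of all were. Differences ran from -0.46 to 0.56, 8 above 0 and 9 below, with a median size of 0.21 against 0.17 over all probe sets. The smallest adjusted p-values were those of Cbfb (0.0846) and of the dimmer Cd4 probe set (0.0888).

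**Figure D1:**
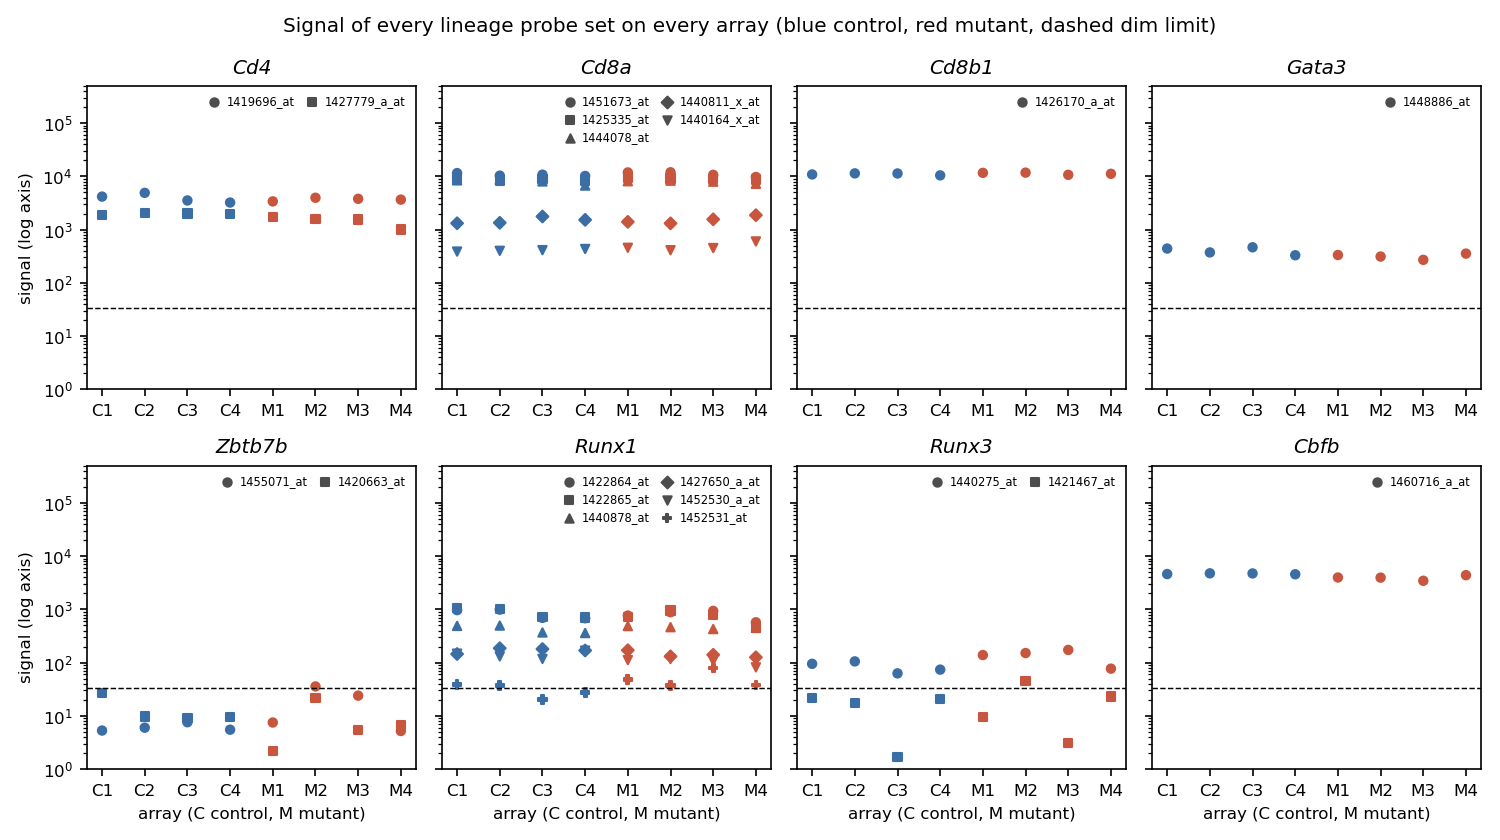
Signal (log axis) of each of the 20 lineage probe sets on the 4 control (C1 to C4, blue) and 4 mutant (M1 to M4, red) arrays, a panel for each gene and a marker for each probe set. The dashed line is the dim limit of 33.8. Cd4, Cd8a, Cd8b1, Gata3 and Cbfb lie above it on every array, while 15 of the 16 Zbtb7b readings lie below it.

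Cd4, the coreceptor for class II MHC, was read by 2 probe sets that differed from each other in their result. The brighter, 1419696_at, read 4173.7, 4907.6, 3533.6 and 3227.6 in control replicates 1 to 4 and 3389.7, 3971.4, 3792 and 3661.7 in mutant replicates 1 to 4. The mutant values lay within the control range. The difference was -0.08 ± 0.12 (SE, n = 4 each, adjusted p = 0.750), with a 95% confidence interval of -0.34 to 0.18. The other, 1427779_a_at, read 1899.1, 2046.1, 2005.7 and 1949.2 in control and 1729.3, 1578.2, 1546.5 and 1004.4 in mutant mice. Every mutant array was below every control array, and mutant replicate 4 was the lowest. Its difference was -0.46 ± 0.15 (SE, adjusted p = 0.0888, interval -0.77 to -0.14), with a two-sided exact permutation p of 0.0286, the smallest that the 70 labellings can give. Without mutant replicate 4 it was -0.29. The gap between both probe sets within an array, a contrast chosen after their values were seen, moved by -0.38 between the groups (exact permutation p = 0.143). CD4 was also the protein on which the cells were enriched, so Cd4 is not an independent readout of coreceptor level here.

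Cd8a, the alpha chain of the class I coreceptor, was bright on each of its 3 brightest probe sets and near equal between the groups. Probe set 1451673_at read 11546.2, 10334.8, 10776.8 and 10198.3 in control and 11883.4, 11951.2, 10701.3 and 9754.6 in mutant mice. The groups overlapped, and mutant replicate 4 was the lowest of the 8. The difference was 0.04 ± 0.08 (SE, adjusted p = 0.788), with an interval of -0.12 to 0.21, or 0.919-fold to 1.16-fold. Probe sets 1425335_at and 1444078_at differed by 0.08 (interval -0.05 to 0.20) and -0.002 (-0.19 to 0.18). The 2 dimmer probe sets, which carry the suffix for possible cross-hybridisation, differed by 0.04 (1440811_x_at) and 0.21 (1440164_x_at, adjusted p = 0.351). On both of them mutant replicate 4 was the highest array, at 1867.3 and 599.4. The signs of 1451673_at and 1425335_at turned under quantile normalisation, to -0.076 and -0.0094.

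Cd8b1, the beta chain that pairs with the alpha chain on conventional T cells, also overlapped between the groups. Its probe set 1426170_a_at read 10881.5, 11402.9, 11355.4 and 10457.4 in control and 11658.1, 11777.6, 10718.5 and 11189.6 in mutant mice. The groups overlapped, with means of 11024 ± 445 and 11336 ± 484 (SD, n = 4). The difference was 0.04 ± 0.06 (SE, adjusted p = 0.734), and its interval, -0.08 to 0.16, runs from 0.944-fold to 1.12-fold. It was -0.061 under quantile normalisation.

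Gata3, the zinc finger factor required for CD4 cells, was expressed above the dim limit in every mouse. Probe set 1448886_at read 440.4, 372.7, 465.6 and 329.7 in control and 333.3, 312, 270.5 and 354.1 in mutant mice. Control replicate 4 lay inside the mutant range, and the other 3 control mice lay above all mutant mice. Means were 402 ± 62.2 and 317 ± 35.7 (SD, n = 4), a difference of -0.32 ± 0.13 (SE, interval -0.62 to -0.03). It did not pass after adjustment (adjusted p = 0.189) or in the exact permutation test (p = 0.0857). The sign was kept in 18 of 18 alternative settings, with adjusted p from 0.0688 to 0.605.

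Zbtb7b, the gene of ThPOK and the switch to the CD4 lineage, was near background and could not be tested. Probe set 1455071_at read 5.3, 6, 7.6 and 5.5 in control and 7.5, 35.7, 24 and 5.2 in mutant mice. The single reading above the dim limit, among 16 from both probe sets, was that of mutant replicate 2. On probe set 1420663_at the readings ran from 9 to 27 in control and 2.2 to 21.4 in mutant mice. Values this low have no reliable order, and no fold is given.

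Runx1, the Runx factor of early thymocytes, was read by 6 probe sets, all tested. The brightest, 1422864_at, read 970.6, 994.6, 694.8 and 683.9 in control and 767.5, 888.2, 938.7 and 574.1 in mutant mice. Control replicates 1 and 2 stood well above replicates 3 and 4, and mutant replicate 4 was the lowest array. The group difference was -0.08 ± 0.17 (SE, adjusted p = 0.841, interval -0.46 to 0.31), and 0.065 without mutant replicate 4. Probe set 1422865_at showed the same split of the control mice, with 1064.9 and 1021.1 in replicates 1 and 2 against 719.3 and 709.2 in replicates 3 and 4. Its mutant mice read 719.1, 956.3, 786 and 458.8 (difference -0.28 ± 0.21, adjusted p = 0.485). On 1440878_at the control mice again divided into 490.1 and 497.6 against 369.3 and 360.3. There the mutant mice lay between 428.1 and 487.6, a difference of 0.10 (adjusted p = 0.695).

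The dimmer Runx1 probe sets pointed in different directions. Probe set 1452530_a_at read 147.6, 131.3, 117.7 and 168.2 in control and 111.9, 117.3, 108.6 and 81.6 in mutant mice. The groups did not overlap, but by a gap of 117.3 against 117.7. The difference was -0.38 ± 0.15 (SE, adjusted p = 0.176, exact permutation p = 0.0286). Probe set 1427650_a_at differed by -0.24 (adjusted p = 0.341). Probe set 1452531_at, dim on 2 of 8 arrays, differed by 0.49 ± 0.23 (adjusted p = 0.253). The 6 probe sets thus gave 4 differences below 0 and 2 above 0, with 0 called.

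Runx3, the Runx factor of CD8 cells and repressor of Cd4, was low but measurable on 1 of its 2 probe sets. Probe set 1440275_at read 95.1, 105.6, 62.9 and 74 in control and 139.1, 151.6, 173.6 and 77.2 in mutant mice. Mutant replicates 1, 2 and 3 lay above all control mice, and mutant replicate 4 lay among them. Means were 84.4 ± 19.4 and 135 ± 41.3 (SD, n = 4), and the difference was 0.56 ± 0.23 (SE, adjusted p = 0.174, interval 0.06 to 1.07). Without mutant replicate 4, the array with the high 18S reading, it was 0.78 and was called (adjusted p = 0.0246), where 8.25% of all probe sets were called. It was not called without any other single array (adjusted p up to 0.384 in limma). Of the double-negative markers, Il2ra read 30.6 to 192.6 in control and 570.1 to 1101.9 in mutant mice. Kit overlapped, at 24.2 to 49.8 in control and 37.8 to 89.9 in mutant mice. Cd44 overlapped too, at 110.9 to 161.7 in control and 95.6 to 139.8 in mutant mice. The part of such cells in the Runx3 value was not tested. Probe set 1421467_at was above the dim limit on 1 array, mutant replicate 2 at 45.3, and was not tested.

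The promoters of the Runx genes carry letters of the kind that Runx proteins themselves bind, which is why a stretch of each is shown. RefSeq windows of 300 bases (GRCm38.p6, from 250 before to 50 after an annotated start) were at hand for 7 of the 9 genes, 10 windows in all. Each Runx gene had a window with the motif AACCACA repeated after a single base. The stretches below read 5′ to 3′ on the gene's strand with each motif in capitals.
Runx1, chr16:92826025-92826054, minus strand: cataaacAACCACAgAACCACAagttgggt
Runx2, chr17:44814583-44814612, minus strand: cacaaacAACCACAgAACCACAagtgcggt
Runx3, chr4:135120503-135120532, plus strand: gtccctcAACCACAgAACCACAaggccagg
Counted from 1 at the annotated start, the pair begins at position 28 in Runx1 and 23 in Runx2, and it begins at -135 in Runx3.

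Searched on both strands, AACCACA was in 5.27% of all 32851 windows and a pair of them 1 base apart, of whichever letter, in 5 (0.0152%). These were the 3 Runx windows, that of Gm16225, which overlaps the Runx3 window on the other strand, and that of the odorant receptor gene Olfr24. The windows of Gata3, Zbtb7b, Cd8a and Cbfb and the other windows of Runx1 and Runx3 held no AACCACA. A c-Myb motif (TAACGG or TAACTG or CAACGG or CAACTG, both strands) was in 28.3% of all windows. Among the 10 lineage windows it was in 1, the Runx1 window that holds the pair. Its 2 matches begin at -167 and -25, outside the stretch shown above. A match is a run of letters, and binding was not measured.

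Cbfb encodes the subunit that Runx proteins need to bind DNA firmly, and it gave the smallest adjusted p of the group. Probe set 1460716_a_at read 4624.9, 4771.9, 4749.7 and 4582.3 in control and 3988.1, 3963, 3456.9 and 4407.5 in mutant mice. Every mutant mouse lay below every control mouse, and mutant replicate 4 lay closest to them. Means were 4682 ± 92.9 and 3954 ± 389 (SD, n = 4), or 84.4% of the control mean. The difference was -0.25 ± 0.08 (SE, interval -0.42 to -0.08), with adjusted p = 0.0846 in limma and an exact permutation p of 0.0286. Without mutant replicate 4, the mutant array closest to the control mice, it was -0.30 and was called (adjusted p = 0.0323 in limma). It was not called without any other single array (adjusted p up to 0.206). Its sign was kept in 18 of 18 alternative settings.

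**Figure D2:**
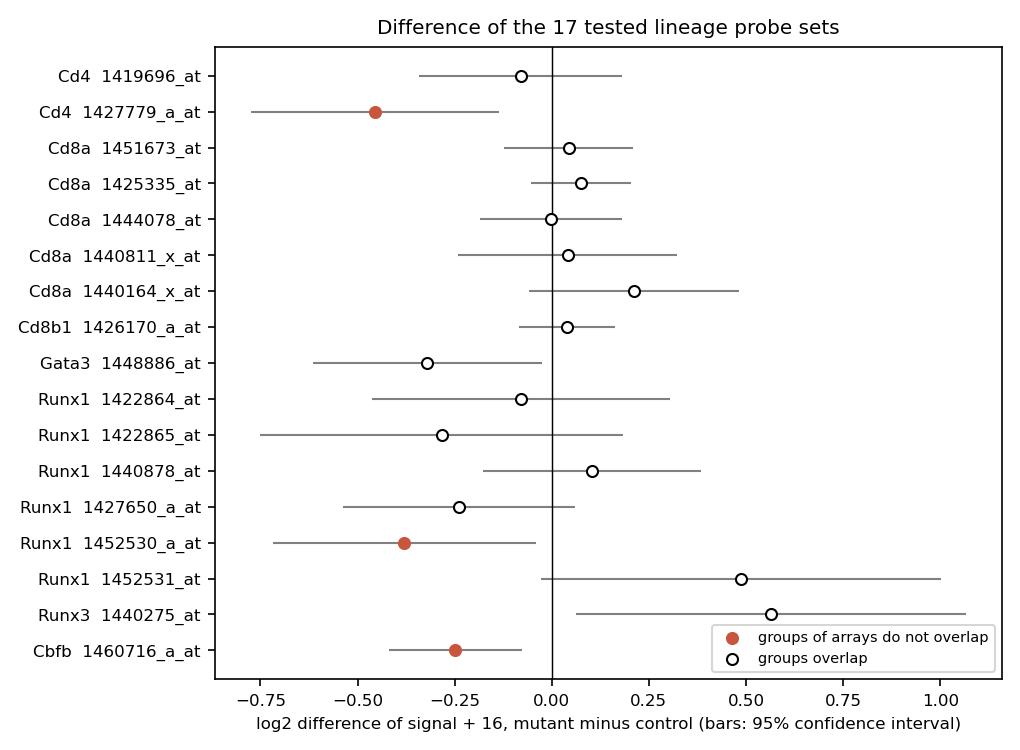
Difference of log2(signal + 16), mutant minus control, for the 17 tested lineage probe sets, with 95% confidence intervals from limma (4 mice per group). Filled points mark the 3 probe sets whose groups do not overlap (Cd4 1427779_a_at, Runx1 1452530_a_at and Cbfb). Intervals of the Cd8a and Cd8b1 probe sets span 0, and those of Gata3 and Runx3 1440275_at lie on opposite sides of it.

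Whether 2 members moved apart was tested within arrays, which removes the scaling of the array. Of the 4 pairs planned, that of Gata3 and Zbtb7b was left out because Zbtb7b was dim, and p-values were adjusted over the other 3. Runx1 minus Runx3, on the brightest probe set of each, was 3.15, 3.06, 3.17 and 2.96 in control and 2.34, 2.43, 2.33 and 2.66 in mutant mice. The groups did not overlap. The mean moved from 3.08 ± 0.10 to 2.44 ± 0.15 (SD, n = 4), a shift of -0.64 with a two-sided exact permutation p of 0.0286 (0.0857 adjusted over 3 pairs). A pair that alone reaches 0.0286, the smallest p of this design, cannot pass after adjustment over 3. Leaving out 1 array at a time gave shifts of -0.72 (without mutant replicate 4) to -0.61. With all tested probe sets of each gene averaged the shift was -0.63 (adjusted exact permutation p = 0.0429). Runx3 had 1 tested probe set, so only Runx1 was averaged. The adjusted p was lower there only because Cd4 minus Cd8a also reached the smallest p, and the Runx shift was no larger. The Runx pair divides a bright and a dim gene, and with a pseudocount of 64 its shift was -0.48.

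On the brightest probe sets the coreceptor pairs moved little. Cd4 minus Cd8a changed by -0.12 there (exact permutation p = 0.543, adjusted 0.814). Averaged over all probe sets of each gene it changed by -0.34 (adjusted p = 0.0429), which includes the Cd4 probe set whose groups do not overlap. Cd8a minus Cd8b1 changed by 0.004 (exact permutation p = 0.943), from -0.04 ± 0.10 to -0.04 ± 0.11 (SD, n = 4).

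**Figure D3:**
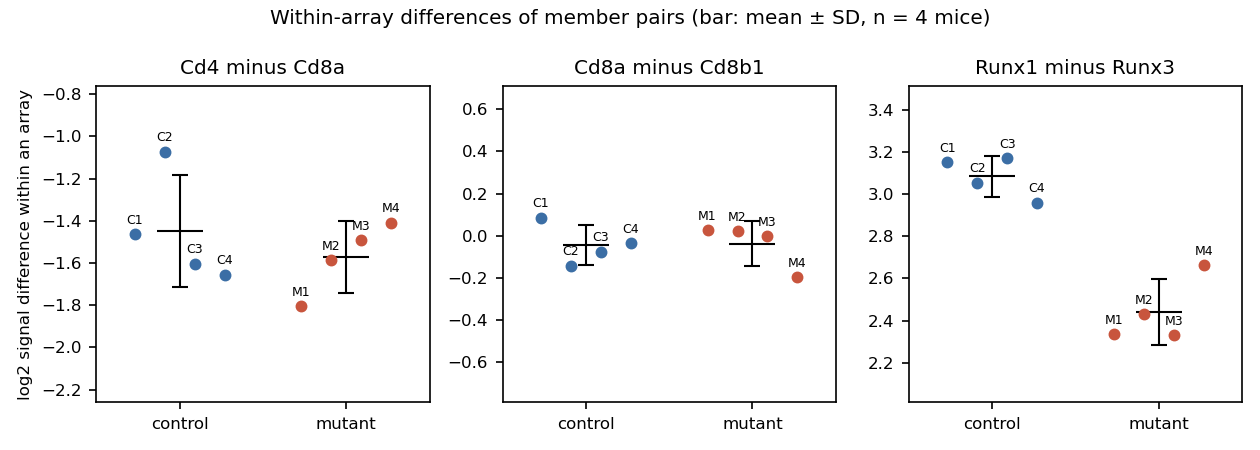
Within-array log2 signal differences of 3 pairs of lineage genes, on the brightest probe set of each, for 4 control (blue) and 4 mutant (red) mice, with mean ± SD. Runx1 minus Runx3 lies between 2.96 and 3.17 in control and between 2.33 and 2.66 in mutant mice, and the other pairs overlap.

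The genes around the choice were read from 7 lists picked by role with earlier results of these data known, a gene being taken by its brightest tested probe set. Of 86 listed genes 71 were tested, and 8 rose and 7 fell. That is 21.1%, against 8.16% of all 9941 genes taken the same way (4.77% higher and 3.39% lower), a share that the choice of lists bears on. Among the rises, Ccr4 and Cst7 passed the dim filter only with the mutant arrays counted, which bears on the share too. Regulators reported at the Cd4 and Cd8 loci had 2 falls and 0 rises among 12, with a median difference of -0.07 against 0.02 over all genes. Smarca4, the ATPase of the BAF chromatin remodeller that acts at the Cd4 silencer and Cd8 enhancers, read 3855.7, 4392.2, 3435.1 and 3361.6 in control and 2498.4, 2256, 2049.5 and 2621.1 in mutant mice. It fell by 0.67 ± 0.11 (SE, adjusted p = 0.00403), and its other probe set fell by 0.65. The BAF subunits Smarcb1 and Smarce1 differed by -0.0007 and -0.12, and neither passed. Patz1, which encodes the zinc finger factor MAZR, a repressor of Cd8 and Zbtb7b, fell from 1063.7 to 1284.1 in control to 765.7 to 968.3 in mutant mice (-0.51 ± 0.10, adjusted p = 0.0138), with -0.25 and no call on its other probe set. Ets1, named after its values were seen, differed by -0.29 on its brightest probe set, which did not pass, while its 3 other tested probe sets all fell, by 0.43 to 0.73.

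Among factors reported upstream of Gata3 and ThPOK, 1 of 11 rose and 1 fell (median -0.07). Tox, an HMG box factor that CD4 lineage cells require, read 282.6, 286.9, 428.1 and 503.2 in control and 272.5, 200.6, 179.1 and 160.3 in mutant mice. It fell by 0.82 ± 0.21 (SE, adjusted p = 0.0390), by 0.78 on a second probe set, and differed by -0.30 without a call on the other. Notch1, a receptor of early thymocytes, rose by 0.83 ± 0.22 (adjusted p = 0.0444), with 0.43 and no call on its other probe set. On both genes control replicates 1 and 2 stood apart from replicates 3 and 4, below them on Tox and above them on Notch1, as on the brighter Runx1 probe sets. Notch1 read 1385.7 and 1354.3 in control replicates 1 and 2 against 810.3 and 762.9 in replicates 3 and 4, and mutant replicate 4 read 1383.6. Of 13 Runx partners and corepressors 1 rose (median -0.09), the Groucho family gene Tle2, by 1.52 ± 0.36 (adjusted p = 0.0279). Tle2 read 226.6 and 175.5 in control replicates 1 and 2, 69.8 and 83.7 in replicates 3 and 4, and 269.7 to 663.5 in mutant mice. Among the 12 that did not pass, the corepressor gene Sin3a differed by -0.34 (adjusted p = 0.0790).

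Cytokine signalling, reported to favour the CD8 fate through Runx3, had 1 rise and 2 falls among 10 (median 0.05). Stat5a, a factor activated by interleukin-7, went from 791.8 to 846.7 in control to 488.6 to 558.1 in mutant mice, so the groups lay far apart, and it fell by 0.62 ± 0.09 (adjusted p = 0.00239). Stat5b fell by 0.32 ± 0.09 (adjusted p = 0.0491). Socs3, an inhibitor of cytokine signals, rose by 1.89 ± 0.33 (adjusted p = 0.00734). It too was higher in control replicates 1 and 2 (1244.9 and 1106.9) than in replicates 3 and 4 (478.3 and 359.8), with 2318.9 to 3169.7 in mutant mice. Socs1 differed by 0.09 without a call. Of 13 coreceptor signalling genes 2 fell and 0 rose (median 0.05): Nfatc3, a calcium-regulated factor, fell by 0.76 ± 0.16 (adjusted p = 0.0154) and Cd247, the receptor zeta chain, fell by 0.25 ± 0.06 (adjusted p = 0.0373), with -0.24 and 0.45 and no call on its other probe sets. Cd3d, Cd3e and Cd3g differed by 0.10, 0.08 and 0.05 and were not called.

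The called genes on the lists for mature CD4 and CD8 lineage cells were all higher, where 4.77% of all 9941 genes tested were called higher. These lists too were picked with earlier results of these data known, so the counts are no result about either lineage. Of 8 genes listed for CD4 cells 5 were tested, as Cd40lg, Foxp3 and Il6ra did not pass the dim filter. Of 13 listed for CD8 cells 7 were tested, as Eomes, Tbx21, Gzmb, Gzmk, Crtam and Xcl1 did not pass it. The counts below thus cover only the listed genes bright enough to test. On the CD4 side 2 of 5 rose: Maf by 4.91 ± 0.25 (adjusted p = 4.97e-06), from 37.6 to 46.4 in control to 1149.2 to 2995.7 in mutant mice, and the chemokine receptor gene Ccr4 by 2.06 ± 0.37 (adjusted p = 0.00740). Ccr4 read 36.9, 3.9, 33.6 and 14.2 in control mice, dim in 3 of the 4, and 64 to 213.7 in mutant mice. The size of its rise thus rests on a level near background. Ccr4 passed the dim filter only with the mutant arrays counted. Its entry among the 5 tested genes and its call are thus not independent of that difference. Icos, Il21r and Ctla4 differed by 0.52, 0.11 and -0.06 and did not pass. The 2 other tested probe sets of Icos differed by 0.13 and 0.72, and 1 of them was called higher. On the CD8 side 3 of 7 rose. The granzyme gene Gzma read 1979.5, 2400.3, 1982.3 and 2254.2 in control and 4065.8, 3879.1, 3700.4 and 2961.8 in mutant mice, and rose by 0.75 ± 0.11 (adjusted p = 0.00239). Ctsw, a cathepsin gene of cytotoxic cells, rose by 1.24 ± 0.33 (adjusted p = 0.0491). Cst7, which encodes a cystatin of cytotoxic cells, was dim in all 4 control mice and at least 1.77-fold higher in mutant mice (adjusted p = 0.00603). Cst7 passed the dim filter only through the mutant arrays, so its entry among the 7 tested genes and its call are not independent of that difference. Of the 4 tested genes not called, Klrd1, Nkg7, Itgae and Prf1 differed by 0.78, 0.39, 0.24 and 0.21, with adjusted p from 0.179 to 0.597. Gzma, Ctsw and Cst7 are also genes of natural killer cells. Of the 5 markers fixed for natural killer, NKT and gamma-delta T cells 3 had a probe set. These summed to 24.4 to 98.9 in control and 91.5 to 133.3 in mutant mice. Most of the sum on mutant arrays was Klrd1, at 14 to 74.2 in control and 75.5 to 107.8 in mutant mice with no overlap, while Ncr1 and Zbtb16, at 1.7 to 33, were dim on every array. Their part in these rises was not tested.

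**Figure D4:**
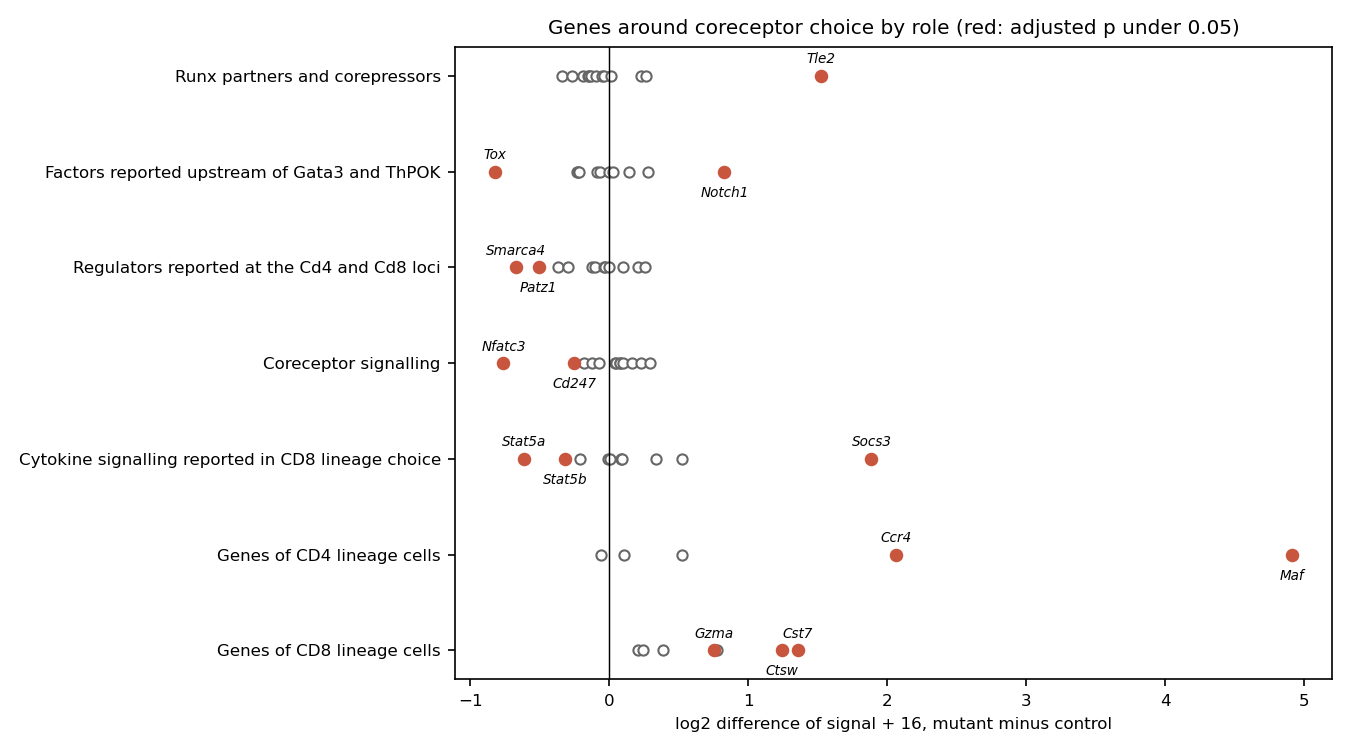
Log2 difference, mutant minus control, of the 71 tested genes around coreceptor choice, each by its brightest probe set, in 7 lists by role. The 15 named red points passed at an adjusted p under 0.05, and open points did not. Smarca4, Patz1, Tox, Nfatc3, Cd247, Stat5a and Stat5b lie left of 0, and Tle2, Notch1, Socs3, Maf, Ccr4, Gzma, Ctsw and Cst7 lie right of it.

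Of these 15 calls, those of Smarca4, Stat5a, Socs3, Maf, Ccr4 and Gzma were kept when any single array was left out. Cst7 kept the call in the 4 fits without a control array (adjusted p up to 0.0242). It could not be tested without any 1 of the mutant arrays, so its stability was examined only in part. Patz1 and Nfatc3 lost the call without control replicate 3 or mutant replicate 2 (adjusted p up to 0.0586 and 0.0566). Tle2 lost it without control replicates 3 or 4 or mutant replicates 2 or 3 (up to 0.0866). Tox lost it without control replicates 3 or 4 or mutant replicates 2, 3 or 4 (up to 0.124), and Notch1 without control replicates 3 or 4 or mutant replicates 1, 2 or 3 (up to 0.135). Stat5b lost it in 6 of the 8 fits, all but those without control replicate 2 or mutant replicate 4 (up to 0.151). Ctsw lost it in 7, all but that without mutant replicate 4 (up to 0.145), and Cd247 lost it in 8 of 8 (up to 0.108). With the Xist class in the model, where control replicate 1 alone carries the group term, all 15 kept their sign and 1, Maf, kept the call, while 15 of all 19100 probe sets were called. In that fit Tox differed by -0.47, Notch1 by 0.42, Tle2 by 0.74 and Socs3 by 1.07.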

How the data were processed

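Each of 8 one-colour Affymetrix mouse arrays held biotin-labelled RNA of 1 mouse, 4 in each group by title. The deposited intensities came from GCOS, the array maker's software, as the submitters' processing notes state, with no version or settings named there. The 2% trimmed mean was 250.0 on every array, so each had been scaled to a common level, which hides any change in total RNA per cell. Detection calls, scan dates and chip batches were not used here. The number of arrays limits the precision.

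Intensities were used as log2(signal + 16), a scale that understates changes of dim genes. Of 45101 probe sets, 64 controls were left out. Among the others 34945 carried a single symbol, 932 more than that and 9160 no symbol. For 34741 the gene identifier was found in the RefSeq table of GRCm38.p6, used for current symbols. One-symbol probe sets above 33.8 on at least 4 arrays, 19100 in all, entered the limma model (version 3.58.1, R 4.3.3; lmFit, eBayes with a variance trend, two-sided, Benjamini-Hochberg threshold 0.05). Single values were also tested by exact permutation over 70 labellings. Figures used Python 3.11.15 and matplotlib 3.10.9.

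The members and lists were chosen with earlier results of these data known. The text names every member, and of each list up to 2 called genes a direction with the largest difference; other list genes were named after their values were seen. No member was called, so the planned search for genes of like pattern named none. Other settings tried were quantile normalization, pseudocounts of 1 and 64, looser and stricter dim filters, 1 probe set a gene or the mean over probe sets, no variance trend, weighted arrays, and a threshold of 0.1. Further fits held the replicate number or the Xist class (signal above or below 1000), or left out an array at a time. Replicate numbers were not treated as pairs: deviations of same-numbered arrays correlated at -0.29 to 0.28. On simulated data for 19100 probe sets, 2% of 1.25-fold, 28% of 1.5-fold, 68% of 2-fold and 98% of 4-fold changes were recovered, and 8 of 106 calls were false.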

Additional observations from a re-analysis of the deposited data

Results flagged for a closer look

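Of 76 sets of 4 values tested for a lone array on the log2 scale, 3 held one, where chance gives about 1 in 20. Xist read 4358.5 in control replicate 1 and 23.4 to 36.7 in the other control mice. Zbtb7b probe set 1420663_at read 27 in control replicate 1 and 9 to 9.8 in the other control mice, all dim. Runx3 probe set 1421467_at read 1.7 in control replicate 3 and 17.6 to 21.9 in the other control mice, also dim.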

How the results depend on the processing

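The count of lineage probe sets called was 2 of 17 with array weights and without mutant replicate 4 (Runx3 1440275_at and Cbfb both times; the lowest and highest counts without an array were 0 and 2), 2 at a threshold of 0.1 (Cd4 1427779_a_at and Cbfb), and 0 in the other alternatives. Over all probe sets 1333 were called, against 2544 with array weights, 2214 at a threshold of 0.1, 15 with the Xist class and 601 to 1560 without an array. Of the list genes 15 were called, against 9 without a variance trend, 1 with the Xist class and 6 to 15 without an array. The replicate numbers did not pair the arrays. With the replicate number as a block 0 lineage probe sets, 12 list genes and 1206 probe sets in all were called. Signs turned for lineage probe sets near 0: under quantile normalization Cd8a 1425335_at (-0.0094), 1451673_at (-0.076) and Cd8b1 (-0.061). With array weights they turned for Runx1 1422864_at (0.065) and for Cd8a 1440811_x_at (-0.10) and 1444078_at (0.038), and with the Xist class for Runx1 1440878_at (-0.097) and Cd8a 1451673_at (-0.065). Without an array, ranges crossed 0 for Cd4 1419696_at (-0.17 to 0.029), Runx1 1422864_at (-0.17 to 0.065), and Cd8a 1440811_x_at (-0.056 to 0.13) and 1444078_at (-0.080 to 0.039). The cause was not tested. The pair Cd8a minus Cd8b1 was -0.015 under quantile normalization and -0.029 to 0.057 without an array. Cd4 minus Cd8a was -0.19 to 0.0014 without an array and -0.34 with probe sets averaged, where Runx1 minus Runx3 was -0.63. Both had an adjusted exact permutation p of 0.0429 there, which each reached only because both were at the smallest p. Without an array Runx1 minus Runx3 was -0.72 to -0.61. Signals near the dim limit restrict what can be said of Zbtb7b and Runx3.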
